A study of Mus musculus with 4 samples.

Results

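The genes described here encode 10 chains of fibrillar collagens and of collagens that associate with fibrils or form networks beside them: Col1a1, Col1a2, Col3a1, Col5a1, Col5a2, Col5a3, Col6a3, Col8a1, Col11a1 and Col12a1. They were taken by gene symbol, and all 10 were found among the 32285 genes counted in each library. Nuclei came from aortic tissue of mice with a CA1 knock-in (carbonic anhydrase 1, an enzyme of bicarbonate formation) in an ApoE-/- background, which is prone to atherosclerosis. The 4 groups had 1 single-nucleus RNA library each and shared that genotype. In the MTZ-after library the mice had high-fat food and were given MTZ once atherosclerosis had formed. In the MTZ-simultaneous library they had high-fat food and MTZ together, in the high-fat library high-fat food alone, and in the untreated library neither. MTZ is spelled methoxazolamide in the labels and is named in the series title as a CA1 inhibitor. The labels used here give no ages, doses, durations or numbers of animals, and no aorta without the knock-in was compared.

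Fibrillar collagens are secreted as procollagen trimers whose ends are trimmed outside the cell, after which the rods align into fibrils that carry the tension of the vessel wall. In the aorta smooth muscle cells and adventitial fibroblasts are the usual makers of types I, III and V, and in atherosclerosis cells of this lineage that have left the contractile state deposit much of the fibrous cap. Types VI, VIII and XII form microfibrils, networks or bridges beside these fibrils.

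Positions below are those of the GRCm38 (mm10) annotation. Among the chains of the major fibrils, Col1a1 (ENSMUSG00000001506) lies at chr11:94936224-94953042, Col1a2 (ENSMUSG00000029661) at chr6:4504814-4541544 and Col3a1 (ENSMUSG00000026043) at chr1:45311538-45349706. The type V chains are Col5a1 (ENSMUSG00000026837) at chr2:27886425-28039514, Col5a2 (ENSMUSG00000026042) at chr1:45374321-45503282 and Col5a3 (ENSMUSG00000004098) at chr9:20770050-20815067. Col11a1 (ENSMUSG00000027966) lies at chr3:114030540-114220718, Col6a3 (ENSMUSG00000048126) at chr1:90765923-90843971, Col8a1 (ENSMUSG00000068196) at chr16:57624258-57754737 and Col12a1 (ENSMUSG00000032332) at chr9:79598991-79718831. Col3a1 and Col5a2 are neighbours that face each other, with 24614 bases and 0 genes between them. Col5a1 is overlapped on the other strand by 2810430I11Rik and Gm13372, and Col12a1 by 4930562D21Rik. The labels do not say whether strand was used in counting, and reads of these pairs may not be told apart.

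The stretches before the gene starts are shown for 4 members chosen because the classes that held them differ, namely the fibrillar chains Col1a2 and Col3a1, the endothelial-rich Col8a1 and the Schwann-rich Col11a1. Each is the 150 bases before the start, 5′ to 3′ on the gene's own strand, from RefSeq (GRCm38.p6), which held 7 of the 10 members. For Col1a2 the RefSeq start lies inside the gene span given above, downstream of the start of that annotation, so its window and distances refer to the RefSeq start. The windows lie at chr6:4505468-4505617 (plus strand), chr1:45311388-45311537 (plus), chr16:57754738-57754887 (minus) and chr3:114030390-114030539 (plus). Capitals mark every match to CCAAT and GGGCGG (both strands, so ATTGG and CCGCCC are marked too) and to TATAAA (gene strand alone); no matches overlapped.
Col1a2: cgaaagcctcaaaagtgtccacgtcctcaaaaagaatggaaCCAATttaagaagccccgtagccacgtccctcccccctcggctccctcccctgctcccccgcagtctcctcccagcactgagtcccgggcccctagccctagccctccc
Col3a1: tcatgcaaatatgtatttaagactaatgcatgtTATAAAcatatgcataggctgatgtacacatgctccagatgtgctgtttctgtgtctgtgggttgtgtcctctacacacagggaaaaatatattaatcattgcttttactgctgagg
Col8a1: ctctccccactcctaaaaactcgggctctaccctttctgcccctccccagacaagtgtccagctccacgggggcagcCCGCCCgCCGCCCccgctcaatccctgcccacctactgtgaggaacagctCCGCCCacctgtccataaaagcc
Col11a1: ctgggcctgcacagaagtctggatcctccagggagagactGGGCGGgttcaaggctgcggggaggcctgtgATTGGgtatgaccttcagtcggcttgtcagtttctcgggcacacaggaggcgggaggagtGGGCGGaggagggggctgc
Col1a2 held a CCAAT match whose first base lay 109 bases before the start, and Col3a1 a TATAAA match at 117. Col8a1 held 3 GGGCGG matches, at 73, 66 and 23, and Col11a1 held GGGCGG at 110 and 19 and CCAAT at 79. Of 32851 promoters of the same length, 24.5% held CCAAT, 28.6% GGGCGG and 4.84% TATAAA. No data on binding or accessibility were used here, so these letters describe the windows alone.

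The MTZ-after, MTZ-simultaneous, high-fat and untreated files held 28116, 19335, 38114 and 22413 nuclei, of which 25992, 17848, 35104 and 20772 were kept. Median unique molecular identifiers (UMIs) per kept nucleus were 825.5, 1427, 953 and 2033 in that order, and pairs of libraries shared 119 to 376 cell barcodes (0.615 to 1.34% of the smaller one). Clusters were formed without any collagen gene and named from marker lists, and 23 of 32 clusters fell into 16 named classes. Unnamed clusters held 39.4% of MTZ-after, 25.8% of MTZ-simultaneous, 69.3% of high-fat and 23.4% of untreated nuclei; the largest, cluster 0, was led by Igkc, Il1rn and Spp1. Surrounding tissue entered unevenly, with 4297 adrenal-cortex-like nuclei in MTZ-after and 6308 brown-adipocyte-like nuclei in untreated. Levels are counts summed over the nuclei of a class and scaled to CPM (counts in 1000000 counts of the same nuclei), with exact 95% intervals that cover counting error only. With 1 library per group no test of treatment was possible, and every ratio compares libraries. A member was called higher or lower at a ratio of at least 2 or at most 0.5 with at least 50 counts in the higher library, and "tested" below means that either library had 50 counts. Where the library with the higher level is the one with the smaller sum of counts over the nuclei compared, fewer genes reach 50 counts there. Calls in that direction are then harder to make.

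Nuclei named modulated-mesenchymal-like held the highest level of Col1a1, Col1a2, Col3a1, Col5a1 and Col6a3 among the named classes in all 4 libraries. They numbered 258 in MTZ-after, 295 in MTZ-simultaneous, 1951 in high-fat and 107 in untreated, and were led by Cemip, Grin2a, Mmp13, Clca3a2, Grem1 and Tnfrsf11b. Of the 10 markers behind the name, 7 were at least 2-fold higher there than in other nuclei, among them Tnfrsf11b, Lum and Timp1, but Cytl1, Chad and Fmod were not. Markers of proliferating cells summed to 33.5 CPM there in MTZ-after, 163 in MTZ-simultaneous, 133 in high-fat and 176 in untreated. Macrophage markers summed to 520, 482, 1001 and 559 CPM in the same order. Fibroblast markers summed to 2277, 2133, 1503.5 and 1642 CPM, and smooth muscle markers to 1199, 1997, 1119 and 1669 CPM. The markers behind the class name summed to 1610, 1014, 1336 and 1617 CPM, so its make-up differed between libraries. The part of such cells in the collagen levels was not tested. The 10 collagens made up 1.14% of UMIs of the class in MTZ-after, 1.08% in MTZ-simultaneous, 0.914% in high-fat and 1.32% in untreated. Fibroblast-like nuclei gave 0.286, 0.319, 0.340 and 0.387% in that order. T- or NK-like nuclei, lymphocytes used here as the measure of background, gave 0.142, 0.150, 0.217 and 0.116%. Other immune classes differed from this measure. B-cell-like nuclei gave 0.166, 0.175, 0.222 and 0.0770%, and macrophage-like nuclei 0.0923, 0.100, 0.159 and 0.0504%. Values set against background or with it subtracted therefore depend on the class chosen.

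Col1a1, the alpha1 chain of type I collagen, stood in modulated-mesenchymal-like nuclei at 2361 CPM (2205 to 2526) in MTZ-after, 2182 (2076 to 2292) in MTZ-simultaneous, 2269 (2215 to 2323) in high-fat and 2337 (2212 to 2468) in untreated. The 4 values lay close together, and the lowest and highest intervals overlapped, but this rested on single nuclei. Without the nucleus that held the most collagen UMIs in each library, the level was 2193 CPM in MTZ-after, 1570 in MTZ-simultaneous, 2166 in high-fat and 1699 in untreated. Fibroblast-like nuclei, marked by Pdgfra, Dcn and Dpt, held 290.4 CPM in MTZ-after, 308 in MTZ-simultaneous, 411 in high-fat and 275 in untreated. Smooth-muscle-like nuclei held 255, 113, 314 and 122 CPM in the same order. The T- or NK-like level was 171 CPM in MTZ-after, 105 in MTZ-simultaneous, 370.3 in high-fat and 54.3 in untreated. The modulated-mesenchymal-like level was therefore 13.8-fold the lymphocyte level in MTZ-after, 20.7-fold in MTZ-simultaneous, 6.13-fold in high-fat and 43.0-fold in untreated. For fibroblast-like nuclei the same ratio was 1.70 (1.30 to 2.25) in MTZ-after, 2.93 in MTZ-simultaneous, 1.11 (0.928 to 1.33) in high-fat and 5.06 in untreated. In high-fat, Col1a1 in fibroblast-like nuclei could therefore not be told from the T- or NK-like level.

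Col1a2, the alpha2 chain that joins Col1a1 in type I trimers, had 869 CPM in modulated-mesenchymal-like nuclei of MTZ-after, 1372 in MTZ-simultaneous, 1029 in high-fat and 1593 in untreated. Fibroblast-like nuclei had 331, 419.7, 378 and 536 CPM in the same order, and T- or NK-like nuclei 123, 139, 181 and 91.6 CPM. Unlike Col1a1, this chain was lower in high-fat than in untreated nuclei in both of the collagen-rich classes. The count ratio of Col1a1 to Col1a2 in fibroblast-like nuclei was 0.878 in MTZ-after, 0.734 in MTZ-simultaneous, 1.09 in high-fat and 0.513 in untreated. In T- or NK-like nuclei that ratio was 1.39, 0.759, 2.05 and 0.593 in the same order.

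Col3a1, which forms the type III homotrimers of distensible tissues such as arteries, had 3985 CPM in modulated-mesenchymal-like nuclei of MTZ-after, 3541 in MTZ-simultaneous, 2544 in high-fat and 4353 in untreated. Here the high-fat level was the lowest of the 4. In fibroblast-like nuclei it had 748 CPM in MTZ-after, 876 in MTZ-simultaneous, 833 in high-fat and 1337 in untreated, and in mesothelial-like nuclei, cells of the serosal lining, 667, 745, 714 and 1065 CPM. The T- or NK-like level was 182, 287, 304 and 197 CPM in the same order, and fibroblast-like nuclei stood above it by 4.10-fold in MTZ-after, 3.05-fold in MTZ-simultaneous, 2.74-fold in high-fat and 6.79-fold in untreated.

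**Figure D1:**
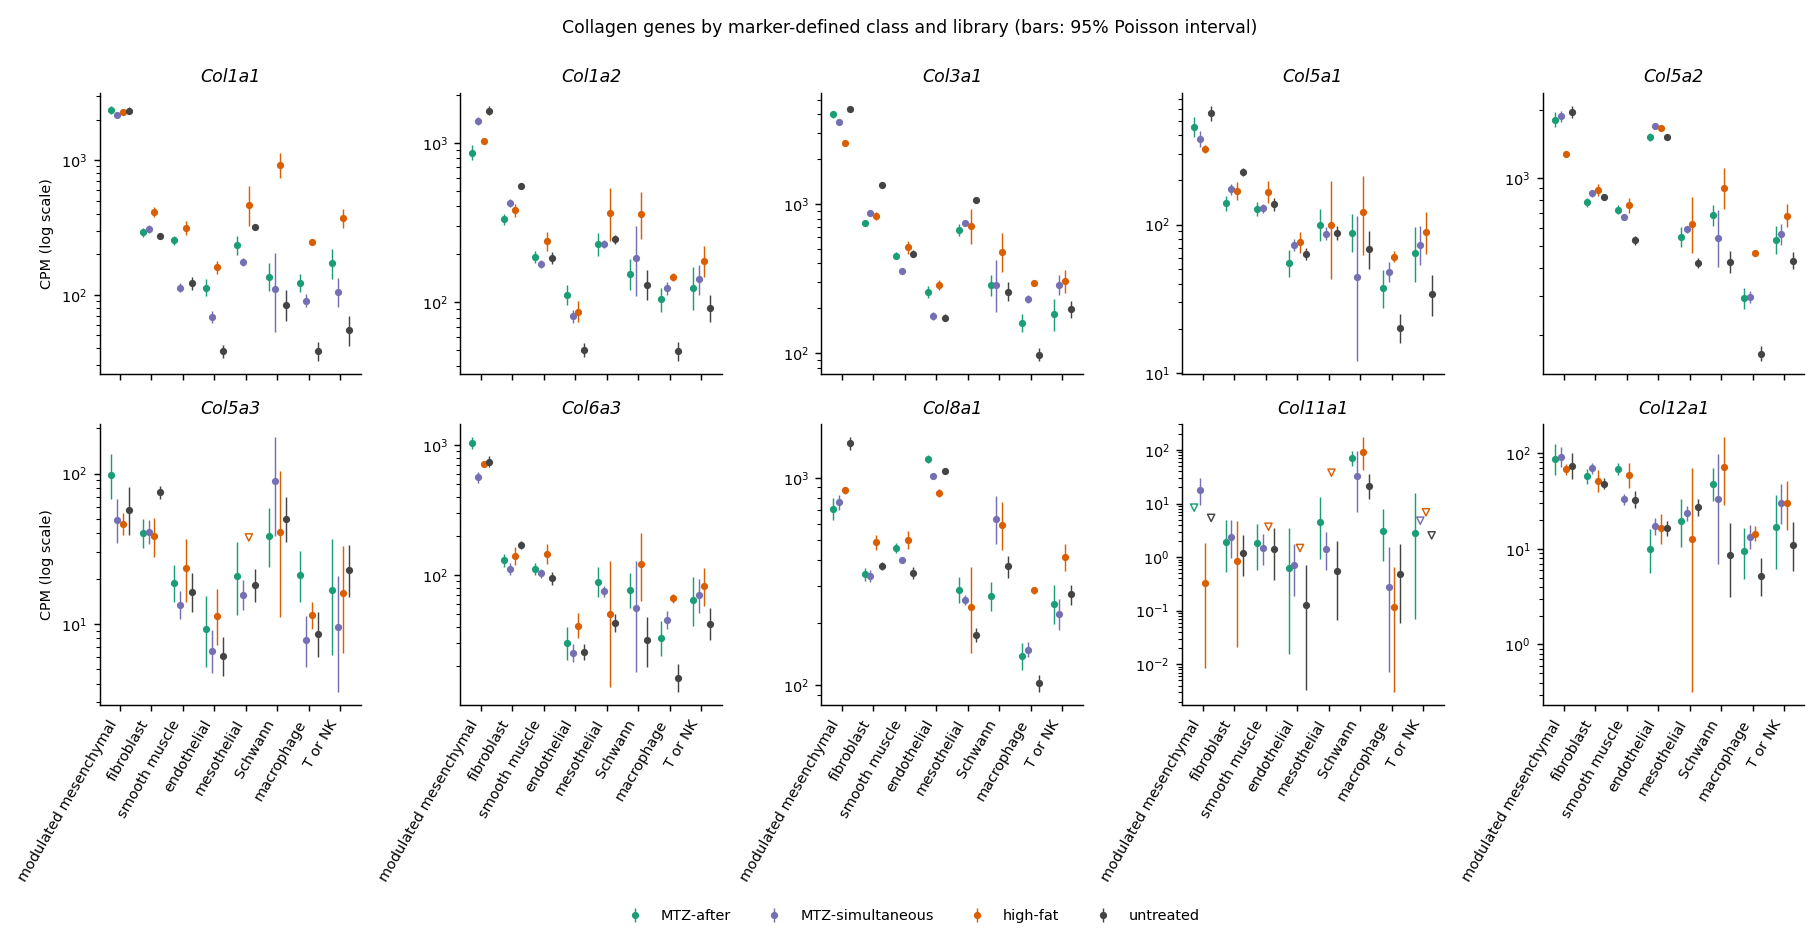
CPM (log scale) of each of the 10 genes in 8 marker-defined classes, 1 point per library (MTZ-after, MTZ-simultaneous, high-fat, untreated), with exact 95% Poisson intervals as bars; open triangles mark the limit that a count of 0 allows (3 counts). Col1a1 stands between 2182 and 2361 CPM in modulated-mesenchymal-like nuclei of all 4 libraries (between 1570 and 2193 without 1 nucleus per library), whereas in T- or NK-like nuclei it stands at 370.3 CPM in high-fat and 54.3 CPM in untreated.

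The type V chains, which start fibril assembly and limit fibril width, did not share 1 pattern. Col5a1 followed the major fibrillar chains, with 455 CPM in modulated-mesenchymal-like nuclei of MTZ-after, 378 in MTZ-simultaneous, 321 in high-fat and 562 in untreated, and with 139.8, 173, 169 and 227 CPM in fibroblast-like nuclei. Col5a2 had 1819, 1881, 1282 and 1971 CPM in modulated-mesenchymal-like nuclei in the same order. Endothelial-like nuclei followed it closely, with 1523 CPM in MTZ-after, 1697 in MTZ-simultaneous, 1673 in high-fat and 1528 in untreated, and in high-fat they exceeded modulated-mesenchymal-like nuclei. Col5a3 was highest in a different class in each library: in neuron-like nuclei of MTZ-after (151 CPM), in Schwann-like nuclei of MTZ-simultaneous (88.8 CPM from 8 counts), in modulated-mesenchymal-like nuclei of high-fat (46.4 CPM) and in fibroblast-like nuclei of untreated (75.1 CPM). In each library its interval in the leading class overlapped that of the next.

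Col11a1, a chain of the type XI fibrils known mainly from cartilage, was scarce, with 129 counts in MTZ-after, 53 in MTZ-simultaneous, 33 in high-fat and 53 in untreated. Schwann-like nuclei held its highest level in MTZ-after, high-fat and untreated, and in MTZ-simultaneous their interval overlapped that of modulated-mesenchymal-like nuclei. The Schwann-like level was 69.9 CPM (38 counts) in MTZ-after, 33.3 (3 counts) in MTZ-simultaneous, 91.5 (9 counts) in high-fat and 21.5 (15 counts) in untreated. In MTZ-after 32.6% of its UMIs lay in chromaffin-like nuclei and 29.5% in Schwann-like nuclei. Modulated-mesenchymal-like nuclei held 13 counts in MTZ-simultaneous and 1 in high-fat, with 0 in MTZ-after and 0 in untreated, which limits it there to 8.38 and 5.39 CPM.

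Col6a3, a chain of the beaded type VI microfibrils, was highest in modulated-mesenchymal-like nuclei of every library, at 1045 CPM in MTZ-after, 565 in MTZ-simultaneous, 713 in high-fat and 749 in untreated. No other named class with at least 50 nuclei passed 262 CPM. Fibroblast-like nuclei held 129.8 CPM in MTZ-after, 112 in MTZ-simultaneous, 141 in high-fat and 171 in untreated, and T- or NK-like nuclei 64.5, 70.2, 82.3 and 42.4 CPM. Col12a1, which decorates the surface of type I fibrils, had 86.6 CPM in modulated-mesenchymal-like nuclei of MTZ-after, 91.7 in MTZ-simultaneous, 67.4 in high-fat and 73.7 in untreated, and its leading intervals overlapped in every library. Col8a1, a short-chain collagen of endothelial and subendothelial networks, was led by endothelial-like nuclei in both MTZ libraries and by modulated-mesenchymal-like nuclei in high-fat, where the intervals of both classes overlapped, and in untreated. Modulated-mesenchymal-like nuclei held 709.8 CPM of it in MTZ-after, 764 in MTZ-simultaneous, 872 in high-fat and 1466 in untreated, and endothelial-like nuclei 1232, 1018, 845 and 1077 CPM.

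Across the 49 sums of a library and a class with at least 50 nuclei, Pearson's r of a member with the sum of the other 9 was 0.89 for Col5a1, 0.81 for Col3a1 and Col1a2, 0.80 for Col5a2, 0.79 for Col6a3, 0.78 for Col1a1 and 0.70 for Col8a1. It was 0.51 for Col12a1, 0.30 for Col5a3 and 0.09 for Col11a1. Among genes on none of the lists used here, those most like the summed members were Sparc (0.92), Dclk1 (0.89), Fstl1 (0.86), Fn1 (0.83), Nhs (0.83), Lhfp (0.82), Sec24d (0.82) and Gpc6 (0.82). These are descriptions, since sums of 1 library share its depth and any free RNA.

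High-fat feeding against no treatment was the first comparison. Over all kept nuclei Col1a1 and Col6a3 rose in high-fat, and the other 8 members stayed under 2-fold. Col1a1 was at 464 CPM in high-fat against 108 in untreated, a ratio of 4.30 (4.19 to 4.42), and Col6a3 at 136 CPM in high-fat against 52.0 in untreated, a ratio of 2.61 (2.50 to 2.72). Called members were thus 2 of 10 tested, against a background of 13.8% of all tested genes in either direction, 6.49% higher and 7.31% lower. Ratios were 1.83 for Col1a2, 1.52 for Col3a1, 1.56 for Col5a1, 1.63 for Col5a2, 1.57 for Col8a1, 1.04 for Col12a1, 0.875 (0.549 to 1.38) for Col11a1 and 0.71 for Col5a3. The median log2 ratio of the members was 0.64, beside 0.09 for all genes. In such sums more nuclei of a class and more RNA per nucleus cannot be told apart.

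The nuclei behind these sums differed between the libraries. Modulated-mesenchymal-like nuclei gave 31.9% of Col1a1 UMIs in high-fat and 18.7% in untreated, from 5.56 and 0.515% of nuclei. Cluster 0 gave 29.0% in high-fat and 0.789% in untreated, from 42.2 and 1.60% of nuclei. The 10 collagens made up 0.276% of cluster 0 UMIs in high-fat, beside 0.217% in T- or NK-like nuclei of that library. Fibroblast-like nuclei gave 2.32% of Col1a1 UMIs in high-fat and 19.6% in untreated, from 2.73 and 10.7% of nuclei. Brown-adipocyte-like nuclei gave 0.295% in high-fat and 21.2% in untreated, from 0.436 and 30.4% of nuclei. Col6a3 had 34.3% of its UMIs in modulated-mesenchymal-like nuclei of high-fat, against 12.4% in untreated. Without the modulated-mesenchymal-like nuclei the ratio of Col1a1 was 3.82 and that of Col6a3 2.08. Without the nuclei of named surrounding-tissue classes they were 3.58 and 1.94, so the call of Col6a3 was lost. Here and below this removal left unnamed clusters in, such as cluster 10 (2954 nuclei), where 5 of 6 white adipocyte markers were enriched.

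**Figure D2:**
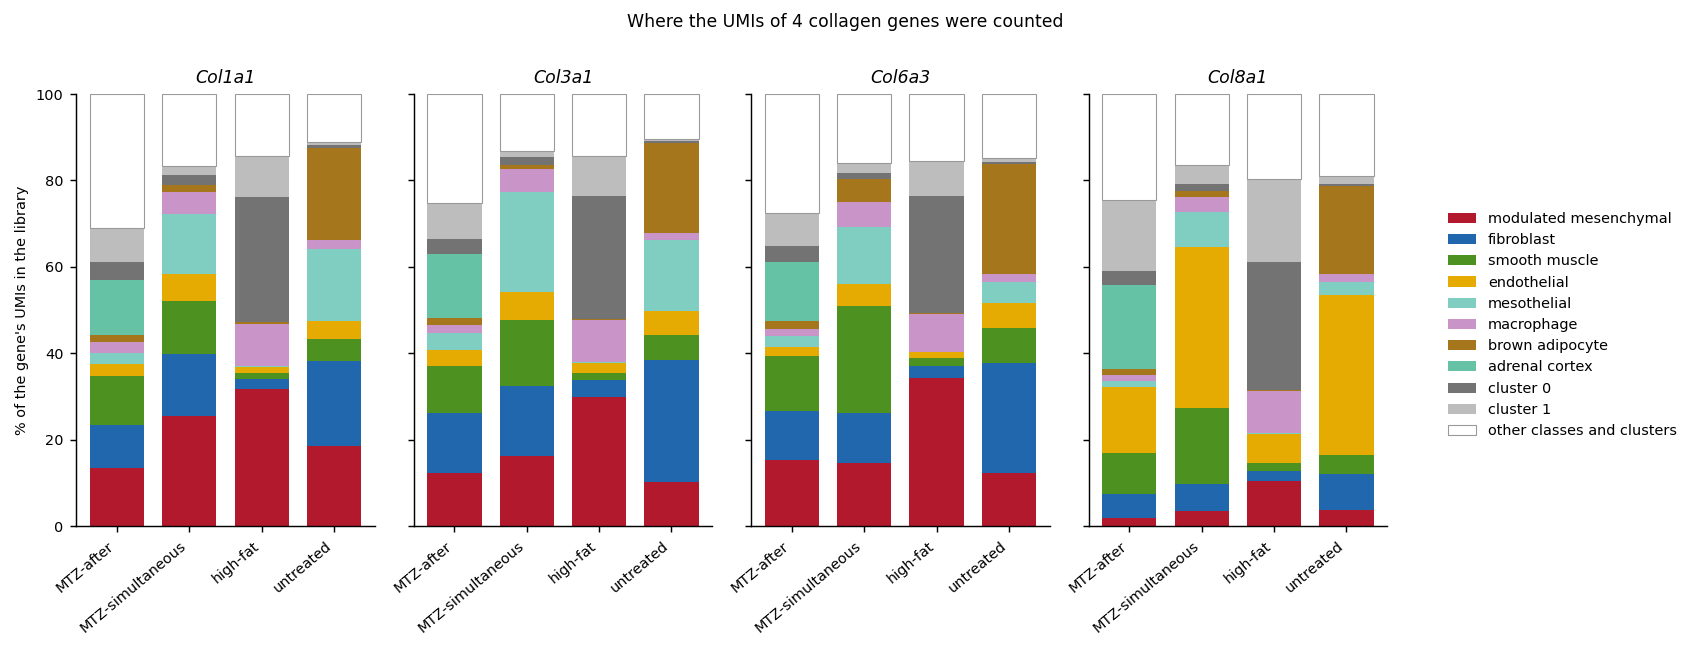
Share of the UMIs of Col1a1, Col3a1, Col6a3 and Col8a1 (% of the gene's UMIs in a library) by the class or cluster that held them, in the order MTZ-after, MTZ-simultaneous, high-fat, untreated. Modulated-mesenchymal-like nuclei and cluster 0 held 31.9 and 29.0% of Col1a1 in high-fat, against 18.7 and 0.789% in untreated. They made up 5.56 and 42.2% of nuclei in high-fat, against 0.515 and 1.60% in untreated. Endothelial-like nuclei held 37.2% of Col8a1 in MTZ-simultaneous and 37.1% in untreated.

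Within the collagen-rich classes the comparison looked different. In modulated-mesenchymal-like nuclei the ratio of high-fat to untreated was 0.971 (0.915 to 1.03) for Col1a1, 0.645 for Col1a2, 0.585 (0.558 to 0.612) for Col3a1, 0.571 for Col5a1, 0.651 for Col5a2 and 0.595 for Col8a1. It was 0.952 for Col6a3, 0.915 for Col12a1 and 0.806 (0.546 to 1.22) for Col5a3. None of the 9 tested members was called, against 12.5% of all genes (11.2% higher, 1.36% lower), and the members' median log2 ratio was -0.62, beside 0.14 for all genes. Single nuclei weigh on these values. The untreated nucleus with the most collagen UMIs held 24.3% of the class's collagen counts and the high-fat one 5.63%. With the top nucleus of each library left out, Col1a1 was at 1.27, Col1a2 at 0.87, Col3a1 at 0.71 and Col6a3 at 1.00. With nuclei weighted equally Col6a3 was at 1.66, and with doublets kept in, which changed the cluster, Col1a1 was at 2.03 and Col6a3 at 2.29, both past the threshold for a call.

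Shares of nuclei with a Col1a1 UMI gave a view that does not weight nuclei by depth. Each nucleus was thinned to 500 UMIs, and no nucleus was shallower. Modulated-mesenchymal-like nuclei with a Col1a1 UMI then made up 45.7% in MTZ-after, 38.6% in MTZ-simultaneous, 45.6% in high-fat and 44.9% in untreated. Before thinning the shares were 61.6, 63.1, 67.5 and 66.4%, at median depths of 936.5, 1638, 1087 and 2648 UMIs. The T- or NK-like share of thinned nuclei was 8.96% in MTZ-after, 7.73% in MTZ-simultaneous, 19.6% in high-fat and 4.15% in untreated, at median depths of 818, 1200, 1040 and 1454.5 UMIs before thinning. Fibroblast-like nuclei stood at 13.7, 13.5, 18.7 and 11.2%, and the high-fat value lay below the 19.6% of lymphocytes in that library. For Col3a1 the thinned shares of modulated-mesenchymal-like nuclei were 62.0% in MTZ-after, 52.2% in MTZ-simultaneous, 50.03% in high-fat and 54.2% in untreated, and those of fibroblast-like nuclei 28.0, 28.9, 30.9 and 36.5%.

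**Figure D3:**
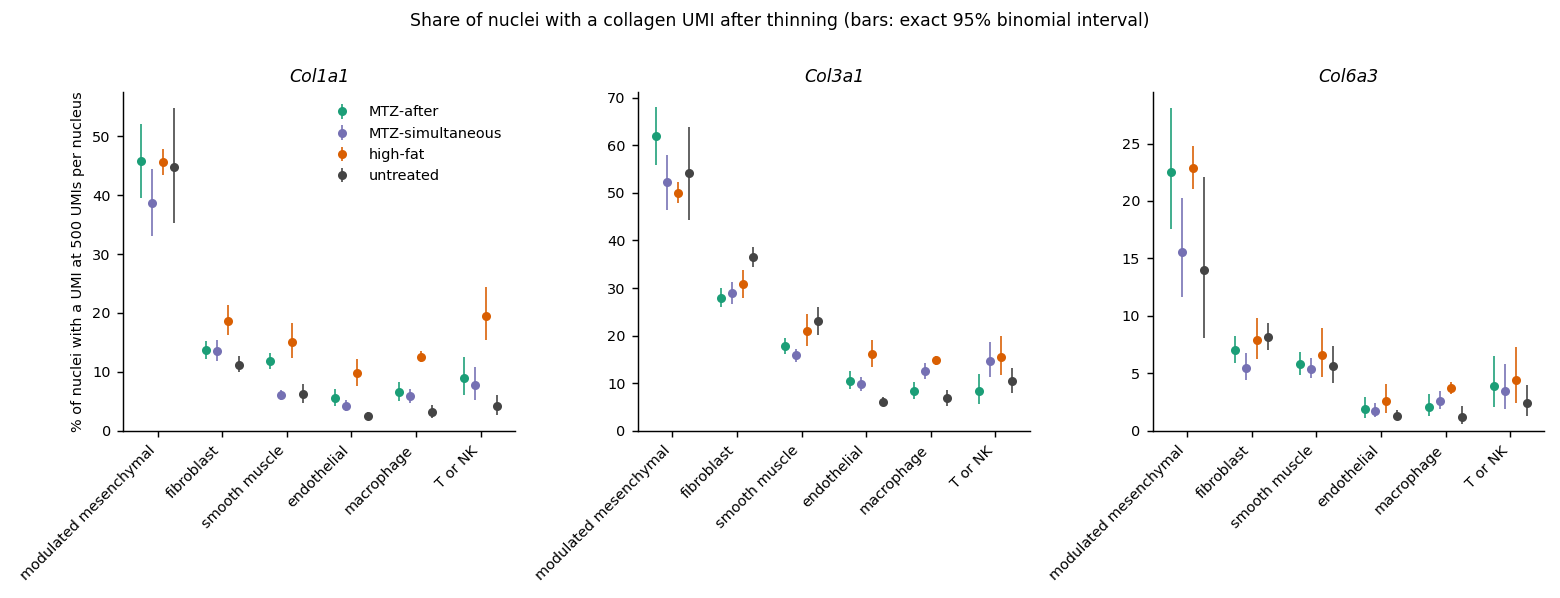
Share of nuclei (%) with at least 1 UMI of Col1a1, Col3a1 or Col6a3 after each nucleus was thinned to 500 UMIs, by class and library, with exact 95% Clopper-Pearson intervals. Col1a1 was detected in 38.6 to 45.7% of modulated-mesenchymal-like nuclei in all 4 libraries, and in T- or NK-like nuclei in 19.6% of high-fat against 4.15% of untreated nuclei.

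In fibroblast-like nuclei the ratio of high-fat to untreated was 0.623 (0.583 to 0.666) for Col3a1, 0.705 for Col1a2, 0.746 for Col5a1, 0.509 for Col5a3 and 0.825 for Col6a3. It was 1.496 (1.35 to 1.66) for Col1a1 and 1.30 for Col8a1, with Col5a2 at 1.07 and Col12a1 at 1.08. Called members were 0 of 9, against 4.96% of all genes (1.85% higher, 3.11% lower). With edgeR's TMM scaling Col5a3 passed the threshold, at 0.46. With the T- or NK-like level subtracted 6 members were called lower in high-fat and Col1a1 turned to 0.19.

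In smooth-muscle-like nuclei Col1a1 rose, at 314 CPM in high-fat against 122 CPM in untreated, a ratio of 2.58 (2.18 to 3.03). It was the 1 member called of 8 tested, beside 7.01% of all genes (2.07% higher, 4.93% lower), and Col12a1 at 1.81, Col6a3 at 1.55, Col8a1 at 1.44, Col5a2 at 1.43 and Col1a2 at 1.28 had intervals above 1. Most of these nuclei belonged to the cluster led by Hpse2, which is also a pericyte marker, and Col19a1 in high-fat (432 of 574), and to the cluster led by Actg2 and Itga8 in untreated (461 of 870). Within the Hpse2 cluster Col1a1 was at 353 CPM in high-fat and 97.01 in untreated and Col8a1 at 467 in high-fat and 231 in untreated. Within the Actg2 cluster Col1a1 was at 247 in high-fat and 133 in untreated. The high-fat level in smooth-muscle-like nuclei was 0.847 (0.693 to 1.04) of that in T- or NK-like nuclei of the same library. It could therefore not be told from the T- or NK-like level. With the T- or NK-like level subtracted, Col1a1 in smooth-muscle-like nuclei was at 0 CPM in high-fat and 67.5 CPM in untreated, which turns the direction of the call.

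Col1a1 was also higher in high-fat than in untreated nuclei of immune classes. The ratio was 6.82 (5.08 to 9.26) in T- or NK-like nuclei, 8.20 (5.59 to 12.4) in B-cell-like nuclei and 6.55 (5.56 to 7.77) in macrophage-like nuclei. In macrophage-like nuclei of no library did a member stand above its own T- or NK-like level with an interval above 1. Col3a1 had smaller ratios in the same nuclei, at 1.54 in T- or NK-like, 2.52 in B-cell-like and 3.01 in macrophage-like nuclei. The count ratio of Col1a1 to Col3a1 in T- or NK-like nuclei was 0.938 in MTZ-after, 0.367 in MTZ-simultaneous, 1.22 in high-fat and 0.276 in untreated. In modulated-mesenchymal-like nuclei it was 0.593, 0.616, 0.892 and 0.537, and in fibroblast-like nuclei 0.388, 0.352, 0.494 and 0.206. With the T- or NK-like level subtracted from all kept nuclei, the ratio of high-fat to untreated was 1.75 for Col1a1, no longer past the threshold, and 5.58 for Col6a3, and Col12a1 was called lower. The part of free RNA in the values of single classes was not tested further.

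MTZ given after atherosclerosis was compared with the high-fat library. Over all kept nuclei Col1a1 fell, at 213 CPM in MTZ-after against 464 in high-fat, a ratio of 0.46 (0.447 to 0.473). Col11a1 was higher, at 4.41 CPM in MTZ-after against 0.717 in high-fat, a ratio of 6.15 (4.17 to 9.31). Schwann-like nuclei numbered 443 in MTZ-after and 61 in high-fat, and chromaffin-like nuclei 1520 and 0. Within Schwann-like nuclei Col11a1 was not higher, at 69.9 CPM in MTZ-after and 91.5 in high-fat (9 counts), with overlapping intervals. Over all kept nuclei its ratio was 5.38 without surrounding-tissue nuclei, which keeps Schwann-like nuclei in. It was 2.24 with the T- or NK-like level, which rested on 1 count, subtracted. Col1a1 and Col11a1 were the 2 of 10 members called, beside 16.2% of all genes (13.6% higher, 2.55% lower). Col6a3 was at 0.612, Col1a2 at 0.661, Col3a1 at 0.708, Col5a1 at 0.773, Col8a1 at 0.838 and Col5a2 at 0.843, while Col12a1 was at 1.22 and Col5a3 at 1.57. Without modulated-mesenchymal-like nuclei Col1a1 was at 0.55, no longer past the threshold, and without surrounding-tissue nuclei it was at 0.503, just short of it. With the T- or NK-like level subtracted Col1a1 was at 0.452 and Col6a3 passed the threshold at 0.347.

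In modulated-mesenchymal-like nuclei of MTZ-after, several fibrillar chains had intervals above the high-fat level. The ratios were 1.57 (1.48 to 1.66) for Col3a1, 1.42 for Col5a1, 1.42 for Col5a2, 1.47 for Col6a3 and 2.11 (1.41 to 3.07) for Col5a3, which had 35 counts in MTZ-after and so could not be called. Col1a1 was at 1.04 (0.968 to 1.12), Col12a1 at 1.29, Col1a2 at 0.845 and Col8a1 at 0.814. None of the 9 tested members was called, beside 6.93% of all genes (0.399% higher, 6.53% lower), and their median log2 ratio was 0.50 beside -0.05 for all genes. With the collagens left among the clustering genes Col3a1 was at 1.14 and Col6a3 at 1.01. In fibroblast-like nuclei 0 of 9 members were called, beside 4.45% of all genes (3.82% higher, 0.632% lower), with Col8a1 at 0.70, Col1a1 at 0.706 and Col3a1 at 0.898. In smooth-muscle-like nuclei 0 of 9 were called, beside 4.96% (4.42% higher, 0.543% lower), with ratios of 0.764 for Col6a3 to 1.14 for Col12a1. Col1a1 there was at 0.811, with 0.588 in the Hpse2 cluster, which held 1755 of the 2250 MTZ-after nuclei, and 1.39 in the Actg2 cluster. In T- or NK-like nuclei Col1a1 was at 0.462, nearly its ratio over all nuclei.

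MTZ given with the diet was set against the same high-fat library, so both MTZ comparisons share it. Over all kept nuclei Col1a1 fell, at 176 CPM in MTZ-simultaneous against 464 in high-fat, a ratio of 0.379 (0.368 to 0.389). Col11a1 rose, at 1.49 CPM in MTZ-simultaneous against 0.717 in high-fat and a ratio of 2.07 (1.32 to 3.30), but was at 1.54 without modulated-mesenchymal-like nuclei. Called members were 2 of 10, beside 10.4% of all genes (8.01% higher, 2.41% lower), and Col6a3 was at 0.586. The other 7 lay between 0.781 (Col1a2) and 1.15 (Col12a1). With the T- or NK-like level subtracted, Col1a1 was at 0.751, no longer past the threshold, and Col6a3 at 0.173, past it.

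In smooth-muscle-like nuclei of MTZ-simultaneous the intervals of all 9 tested members lay below the high-fat level, and Col1a1 fell, at 113 CPM in MTZ-simultaneous against 314 in high-fat, a ratio of 0.361 (0.313 to 0.417). That 1 call stood beside 5.76% of all genes (5.47% higher, 0.286% lower). Col12a1 was at 0.557, Col5a3 at 0.574, Col3a1 at 0.701, Col6a3 at 0.707, Col1a2 at 0.719, Col5a1 at 0.775, Col8a1 at 0.80 and Col5a2 at 0.89. The Actg2 cluster held 1558 of the 2844 MTZ-simultaneous nuclei and the Hpse2 cluster 432 of 574 in high-fat. Within the Hpse2 cluster Col1a1 was at 0.421, Col3a1 at 0.883, Col5a2 at 1.02, Col6a3 at 1.01 and Col8a1 at 1.14. Within the Actg2 cluster Col1a1 was at 0.369, Col3a1 at 0.588, Col6a3 at 0.54 and Col8a1 at 0.571. In T- or NK-like nuclei the Col1a1 ratio was 0.284. With that level subtracted, Col1a1 in smooth-muscle-like nuclei was at 7.88 CPM in MTZ-simultaneous and 0 CPM in high-fat, which turns the direction of this call too.

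In modulated-mesenchymal-like nuclei of MTZ-simultaneous the ratios to high-fat were 1.47 for Col5a2, 1.39 for Col3a1, 1.36 for Col12a1, 1.33 for Col1a2 and 1.18 for Col5a1. Col1a1 was at 0.962, Col8a1 at 0.876 and Col6a3 at 0.793. None of the 9 tested members was called, beside 7.29% of all genes (1.01% higher, 6.28% lower). A single MTZ-simultaneous nucleus of 31137 UMIs held 17.6% of the class's collagen counts, and without the top nucleus of each library Col1a1 was at 0.72 and Col3a1 at 1.27. In fibroblast-like nuclei 0 of 9 were called, beside 3.06% (2.39% higher, 0.664% lower), with Col8a1 at 0.688, Col1a1 at 0.749, Col6a3 at 0.795, Col3a1 at 1.05 and Col1a2 at 1.11.

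**Figure D4:**
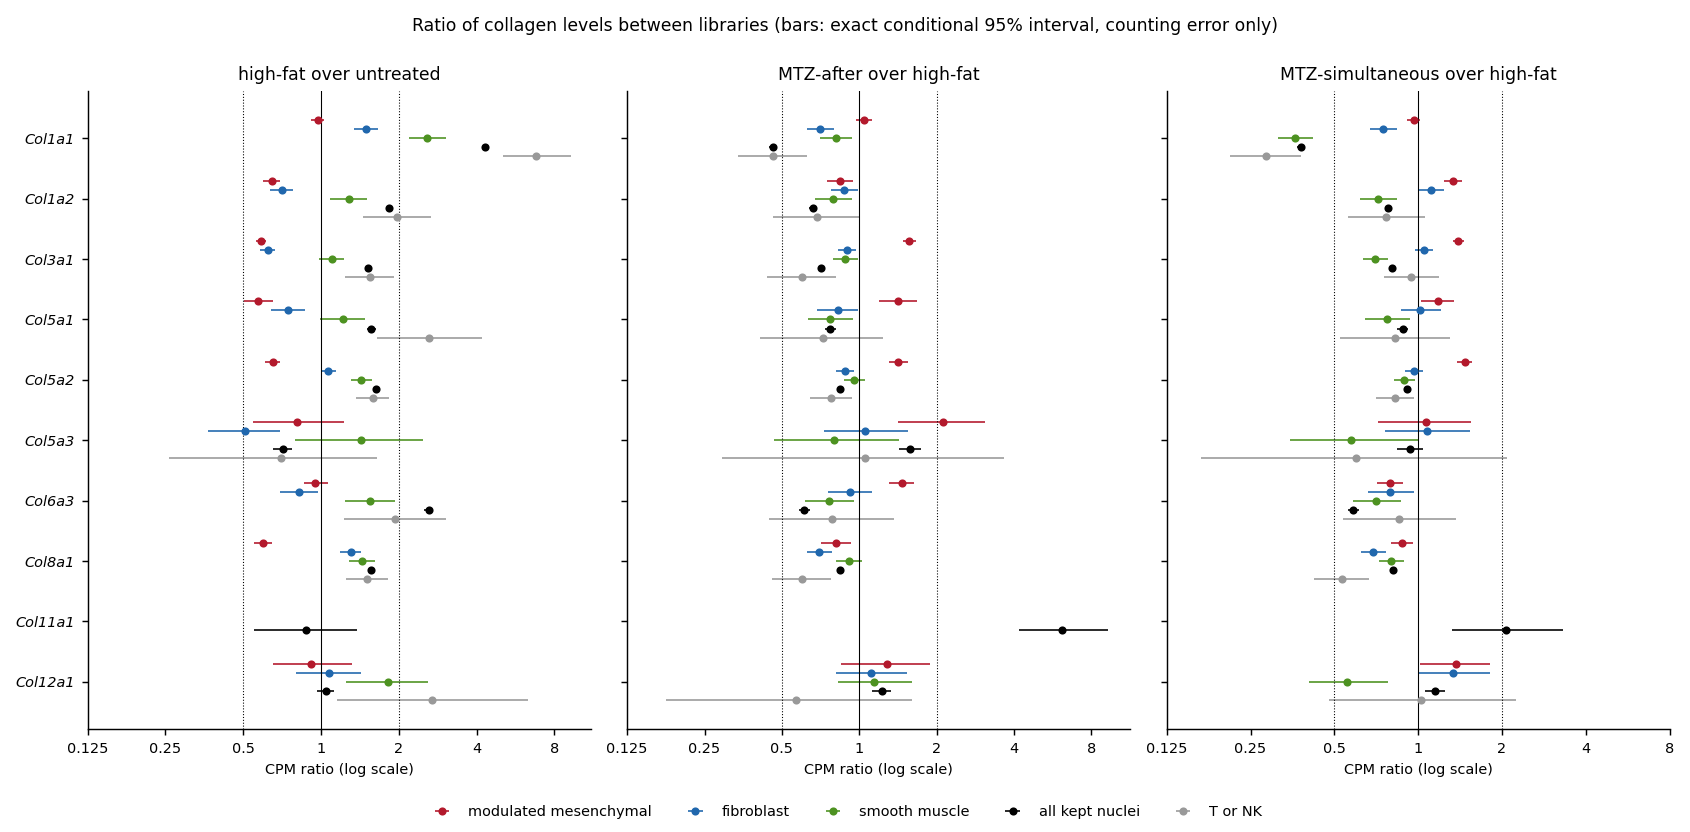
CPM ratio (log scale) of each gene in 3 comparisons (high-fat over untreated, MTZ-after over high-fat, MTZ-simultaneous over high-fat) and 5 populations, where both libraries had at least 5 counts; bars are exact conditional 95% intervals and dotted lines mark 0.5 and 2. For high-fat over untreated Col1a1 is near 1 in modulated-mesenchymal-like nuclei (0.971), at 4.30 over all kept nuclei and reaches 6.82 in T- or NK-like nuclei. Under alternative processing the ratio in modulated-mesenchymal-like nuclei ranged from 0.780 to 2.03.

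Col8a1 and Col5a2 were the members with a second, endothelial source. Endothelial-like nuclei held 15.1% of Col8a1 UMIs in MTZ-after, 37.2% in MTZ-simultaneous, 6.90% in high-fat and 37.1% in untreated, and 11.3, 33.7, 8.31 and 33.3% of Col5a2 UMIs. These shares leave out the unnamed cluster 1, with 5697 nuclei in high-fat and 454 in untreated. Endothelial was its best-scoring class, though only 1 of 9 markers was enriched. With another clustering seed, an endothelial-like cluster that shared leading genes with it held 4652 high-fat nuclei, so the shares depend on naming. In the endothelial-like cluster led by Gm15398 and Sele (the endothelial adhesion molecule E-selectin), Col8a1 had 2013 CPM in MTZ-after, 1421 in MTZ-simultaneous, 930.1 in high-fat and 1656 in untreated. The cluster led by Lrrc3b had 755, 555, 379 and 738 CPM in the same order, so high-fat was lowest in both clusters. In the Sele cluster the ratio of high-fat to untreated was 0.562 (0.531 to 0.594), that of MTZ-after to high-fat 2.16 (2.01 to 2.33) and that of MTZ-simultaneous to high-fat 1.53. Col5a2 there had ratios of 0.758, 1.32 and 1.20. The Sele cluster held 238 MTZ-after nuclei. No share of all genes past the threshold was computed within it, so its ratios are not counted as calls. T- or NK-like nuclei went the other way, with Col8a1 at 247 CPM in MTZ-after, 220.2 in MTZ-simultaneous, 414 in high-fat and 274 in untreated, so high-fat was highest. Over the whole endothelial-like class the ratio of high-fat to untreated for Col8a1 was 0.785. The Sele cluster held 498 of the 657 endothelial-like nuclei of high-fat and 559 of the 2506 of untreated, and the Lrrc3b cluster 124 and 1578, so the class ratio mixes clusters of different levels.

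**Figure D5:**
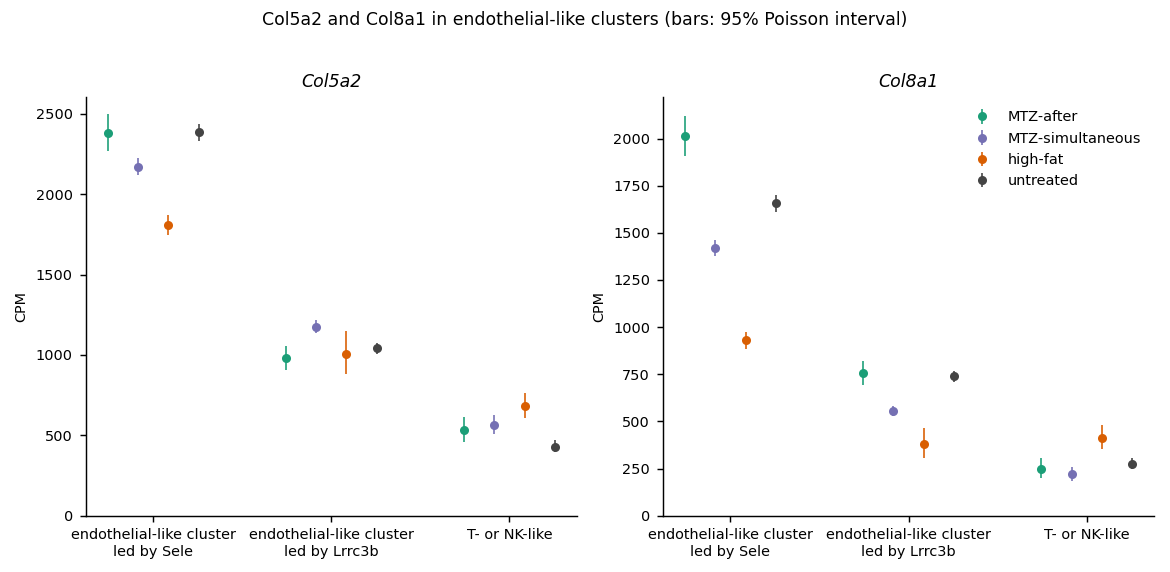
CPM of Col5a2 and Col8a1 in the endothelial-like clusters led by Sele and by Lrrc3b and in T- or NK-like nuclei, 1 point per library with exact 95% Poisson intervals. Col8a1 in the Sele cluster stood at 2013 CPM in MTZ-after, 1421 in MTZ-simultaneous, 930.1 in high-fat and 1656 in untreated, with no overlap between intervals.

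Genes that modify, process, bind, break down or induce collagen were counted by list, and each count is read against the share of all tested genes called in the same comparison and population. Over all kept nuclei these shares were 6.49% higher and 7.31% lower for high-fat over untreated, 13.6 and 2.55% for MTZ-after over high-fat, and 8.01 and 2.41% for MTZ-simultaneous over high-fat. For high-fat over untreated in all kept nuclei, the list of collagen breakdown moved most, with 5 genes higher and 1 lower of 10 tested and a median log2 ratio of 0.88 beside 0.09 for all genes. These sums cannot tell more nuclei of a class from more RNA per nucleus. Modulated-mesenchymal-like nuclei made up 5.56% of nuclei in high-fat and 0.515% in untreated, and brown-adipocyte-like nuclei 0.436 and 30.4%. The collagenase Mmp13 was at 31.8 CPM in high-fat, against 1.45 in untreated (21.8-fold), and the inhibitor Timp1 at 38.6 in high-fat, against 10.4 CPM in untreated. Of the 1462 Mmp13 counts in high-fat, 738 lay in modulated-mesenchymal-like nuclei, and Timp1 is a marker behind that name. The gelatinase Mmp9 fell, with 22 counts in high-fat and 74 in untreated. Of the 19 genes of hydroxylation and folding 1 rose (the prolyl 4-hydroxylase subunit P4ha3, 5.07-fold) and 2 fell (Colgalt2 at 0.332 and the subunit P4ha1 at 0.429). Of 12 processing and cross-linking genes Loxl3 rose (2.14-fold) and the procollagen protease Tll1 fell (0.434). Of 10 receptors the inhibitory collagen receptor Lair1 rose (3.27-fold), and of 21 inducers 3 rose, among them Ccn2 (2.43-fold) and the tendon factor Scx (3.09-fold), and Meox2 fell (0.428). Of 28 other collagens 2 rose and 5 fell, led by Col22a1 (5.38-fold) and Col24a1 (3.19-fold) and by Col27a1 (0.211) and Col6a6 (0.321).

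In modulated-mesenchymal-like nuclei the receptor Lair1 again rose, with 241 counts in high-fat and 7 in untreated (6.39-fold). Its high-fat level there, 80.4 CPM, was below the 111 CPM over all kept high-fat nuclei, and it was also 3.99-fold higher in fibroblast-like nuclei. The part of free RNA or of other cells in these Lair1 values was not tested. For high-fat over untreated, beside 11.2% of all genes higher and 1.36% lower, 4 of 14 other collagens fell, led by the basement membrane chains Col4a5 (0.353) and Col4a6 (0.356), and Col23a1 rose, with 172 counts against 1. The inducers Tgfb2 (0.331) and Ccn2 (0.424, with 523 CPM in high-fat and 1234 in untreated) fell, as did the inhibitor Timp3 (0.441). Mmp13, a leading gene of the class whose values there are a description, had 246 CPM in high-fat and 50.3 in untreated. It had 27.9 CPM in MTZ-after and 1.37 CPM (1 count) in MTZ-simultaneous, with 246 in high-fat. Timp3 was 2.12-fold higher in MTZ-after than in high-fat. In fibroblast-like nuclei 4 of 17 other collagens fell in high-fat against untreated, beside 3.11% of all genes, and the fibroblast activation protease Fap fell (0.454). In smooth-muscle-like nuclei the membrane collagenase Mmp14 rose in high-fat (2.69-fold) and was lower in MTZ-after than in high-fat (0.448).

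For MTZ-after over high-fat in all kept nuclei, 10 of 28 other collagens rose and 2 fell, with a median log2 ratio of 0.36 beside 0.04 for all genes. Breakdown genes had 0 higher and 3 lower of 9, with Mmp13 at 0.0958 and Timp1 at 0.267. For MTZ-simultaneous over high-fat, 9 of 27 other collagens rose and 2 fell, with a median of 0.59 beside 0.10, and Mmp13 was at 0.113. Tll1 rose in both, to 126 CPM in MTZ-after and 154 in MTZ-simultaneous, against 44.8 in high-fat. Lox, which cross-links collagen, fell in smooth-muscle-like nuclei of MTZ-simultaneous (0.487) and in fibroblast-like nuclei of MTZ-simultaneous (0.484). How far surrounding tissue, such as the adrenal-cortex-like nuclei of MTZ-after, enters these sums over all nuclei was not tested.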

How the data were processed

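Single-nucleus libraries (10x 3′ chemistry) were made from aortic nuclei, 1 library per group, per the labels' protocols. The deposited values are raw UMI counts per gene and nucleus, made by the authors with Cell Ranger 7.0.1, per the file headers; mm10 and STAR are named in the submitters' processing notes. Whether intronic reads were counted is not given in the sources used here. Nuclei with at least 300 genes and at most 10% mitochondrial counts were kept, and in each library the 8% with the highest Scrublet scores (ties kept) were removed. The kept nuclei were clustered with leidenalg 0.10.2 (30 components, Leiden resolution 1, no integration), on 2000 variable genes without collagens that were picked with scanpy 1.11.5. A name needed at least 3 markers enriched at least 2-fold. A cluster with such markers still stayed unnamed where its score or depth was low or an unrelated class scored near the best. It also stayed unnamed where its top genes held more markers of another class. Unnamed nuclei may therefore carry class markers, as in cluster 10 (5 of 6 white adipocyte markers enriched). Sums of counts over the nuclei of a class were compared between libraries as CPM ratios with exact conditional 95% intervals. No test between treatments was run with 1 library per group. The comparison code was checked on simulated counts. Members, gene lists and markers were chosen with earlier results of these data known. All 10 members are named; of every other list at most the 2 highest and 2 lowest called genes are named, ranked by the interval bound nearest to 1. Alternatives covered scaling (edgeR 4.0.16), count minimum, background, filters, doublets, clustering and the nuclei included.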

Additional observations from a re-analysis of the deposited data

How the results depend on the processing

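Of the counts of called members under an alternative, 120 stayed within 1.5 times the value reported and 33 did not. Of 1226 member ratios 856 stayed within their counting interval, 369 moved and 1 called ratio turned direction. A further 11 gave no value and are not among the 1226. With the T- or NK-like level subtracted, the called ratio of Col1a1 in smooth-muscle-like nuclei turned to 0 for high-fat over untreated, and for MTZ-simultaneous over high-fat it turned too but had no ratio, since high-fat was at 0. High-fat over untreated: over all kept nuclei 2 members (both higher) became 1 without surrounding-tissue nuclei, and with the subtraction stayed 2 but as 1 higher and 1 lower. In fibroblast-like nuclei 0 became 1 with TMM, 6 with the T- or NK-like level subtracted and 1 with at least 500 genes and at most 5% mitochondrial counts, all lower. In smooth-muscle-like nuclei 1 became 2 with Leiden resolution 2, with the Hpse2 cluster alone, and with libraries centred, all higher, 2 with no minimum count (1 higher, 1 lower), and stayed 1 with the subtraction but lower. In modulated-mesenchymal-like nuclei 0 became 3 with the subtraction (lower), 2 with doublets kept in (higher) and 1 with no minimum. MTZ-after over high-fat: over all kept nuclei 2 became 5 with the subtraction (3 higher, 2 lower) and 1 without modulated-mesenchymal-like or without surrounding-tissue nuclei. In fibroblast-like nuclei 0 became 1 with the subtraction and 1 with no minimum. In modulated-mesenchymal-like nuclei 0 became 1 with the subtraction, 1 with a minimum of 10 and 2 with none. In smooth-muscle-like nuclei 0 became 3 with the subtraction, 1 with libraries centred and 1 with no minimum. MTZ-simultaneous over high-fat: over all kept nuclei 2 became 1 with TMM, without modulated-mesenchymal-like nuclei and without surrounding-tissue nuclei, and 3 with the subtraction (2 higher, 1 lower). In fibroblast-like nuclei 0 became 1 with the subtraction and 1 with no minimum, and in modulated-mesenchymal-like nuclei 1 with the subtraction, 1 with a minimum of 10 and 1 with none. In smooth-muscle-like nuclei 1 (lower) became 3 with the subtraction (2 higher, 1 lower), 2 with a minimum of 10 and 2 with none. A lower minimum tests more members; the cause of the other moves was not tested. TMM shifted all log2 ratios over all kept nuclei by -0.14 for high-fat over untreated, -0.13 for MTZ-after and -0.12 for MTZ-simultaneous over high-fat. Dropping modulated-mesenchymal-like nuclei or the top nucleus, using the Hpse2 cluster alone, and every comparison within modulated-mesenchymal-like nuclei were chosen after seeing the data. No paired analysis was possible because each group has 1 library. Replicate spread is unknown, and counting error is the smallest error a ratio can have.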

Other observations

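The 116 neuron-like nuclei of MTZ-after held 1171 CPM of Col1a1 and 1259.7 CPM of Col3a1, with 1 nucleus giving 29.2% of the Col1a1 counts. In mesothelial-like nuclei of the untreated library 1 nucleus gave 55.6% of the Col1a1 counts behind a level of 319 CPM. In high-fat, Schwann-like nuclei (61) held 915 CPM of Col1a1 and lymphatic-endothelial-like nuclei (129) 909.7 CPM, against 84.5 and 74.9 CPM in untreated.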
